A study of Arabidopsis thaliana with 3 samples.

Results

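The genes described here are the 6 members of the FLC clade, FLC, FLM, MAF2, MAF3, MAF4 and MAF5, and the 2 members of the SVP clade, SVP and AGL24. These 8 of the 27444 protein-coding genes of Arabidopsis were chosen by clade, whether or not they had a peak, with earlier results of these data known. They were examined for binding by a complex of SEP3 with AGIAP1 (written SEP3-AG(API-I) in the sample labels), a chimera of the MADS protein AG that carries the I domain of AP1. Both proteins were made by in vitro transcription and translation, with a FLAG tag on SEP3 and a Myc tag on AGIAP1. The complex was purified on one tag after the other and incubated with sheared genomic DNA from seedlings grown for 2 weeks, and the bound fragments were sequenced (seq-DAP-seq). There is 1 group of 3 replicates, which were joined into 1 list of 3552 bound regions (peaks) of 400 bp, and input DNA served as the control for peak calling. The list gives positions without heights or read counts, so that a gene either has a peak or has none, and neither the variation among the replicates nor the sequencing depth can be read from it. As the DNA was free of chromatin and the proteins were made in vitro, a peak shows that the complex can bind the naked sequence, and whether a plant cell uses it was not measured.

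FLC and its relatives FLM (also called MAF1) and MAF2 to MAF5 are MADS transcription factors that delay flowering. FLC is silenced by prolonged cold (vernalization), and FLM and MAF2 are spliced differently at different temperatures. SVP partners FLC and FLM in repressing FT and SOC1, while its closest relative AGL24 promotes flowering. AP1, whose I domain the chimera carries, lowers the expression of SVP, AGL24 and SOC1 in young floral meristems. MADS proteins bind DNA as dimers at CArG boxes, whose canonical form is CC, then 6 bases of A or T, then GG.

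SEP3-AGIAP1 bound 3 of the 8 genes, MAF2, SVP and AGL24, with 1 peak each. FLC, FLM, MAF3, MAF4 and MAF5 had no peak. A gene counted as bound if any peak was centred between 3000 bp upstream of its start and 1000 bp downstream of its end. By this rule 37.5% of the 8 genes were bound, against 18.0% of all protein-coding genes. The windows of the 8 genes were long, 7210 to 10067 bp, and of the 5107 protein-coding genes with windows in this range 22.6% had a peak. With 8 genes the count of 3 is a description, and nothing particular to the clades is read from it. Both genes of the SVP clade and 1 of the 6 genes of the FLC clade were bound. All 3 peaks had their midpoint inside the gene, downstream of its start, and none of the 8 genes had a peak in the 3000 bp upstream of its start. Among the 1154 bound protein-coding genes with windows of like length, 44.2% had a peak midpoint inside the gene and 86.0% had 1 peak.

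The sequences under the 3 peaks differed in form. To score them, a palindromic matrix of 16 bp (a CArG box of 10 bp with 3 bases on either side) was fitted to all peaks, and a stretch was called a site from 7.81 bits, the score reached once per 2000 bp of the genome. The 7 sites of the 3 peaks are shown along the strand of each gene, with the 10 positions of the box in capitals, because they are the sequences found under the peaks.
MAF2 site: tttCCCCATATAGcaa
SVP site 1: cttCTAAATTTAGcaa
SVP site 2: tctCCCTTTTTAGcaa
AGL24 site 1: tttCTGTACTGGGaaa
AGL24 site 2: tttGTTAATTAGGaaa
AGL24 site 3: ttaCCACAATTAGaat
AGL24 site 4: ttaCCATAATTGGgaa
Only site 4 of AGL24 is a canonical box. Both sites of SVP and sites 2 and 3 of AGL24 differ from the canonical form at 2 positions. The site of MAF2 differs at 3 and site 1 of AGL24 at 4. Over all peaks, the highest-scoring site was a canonical box in 451 peaks (12.7%), had 1 mismatch in 38.2%, 2 mismatches in 36.6% and 3 mismatches in 10.7%.

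**Figure D1:**
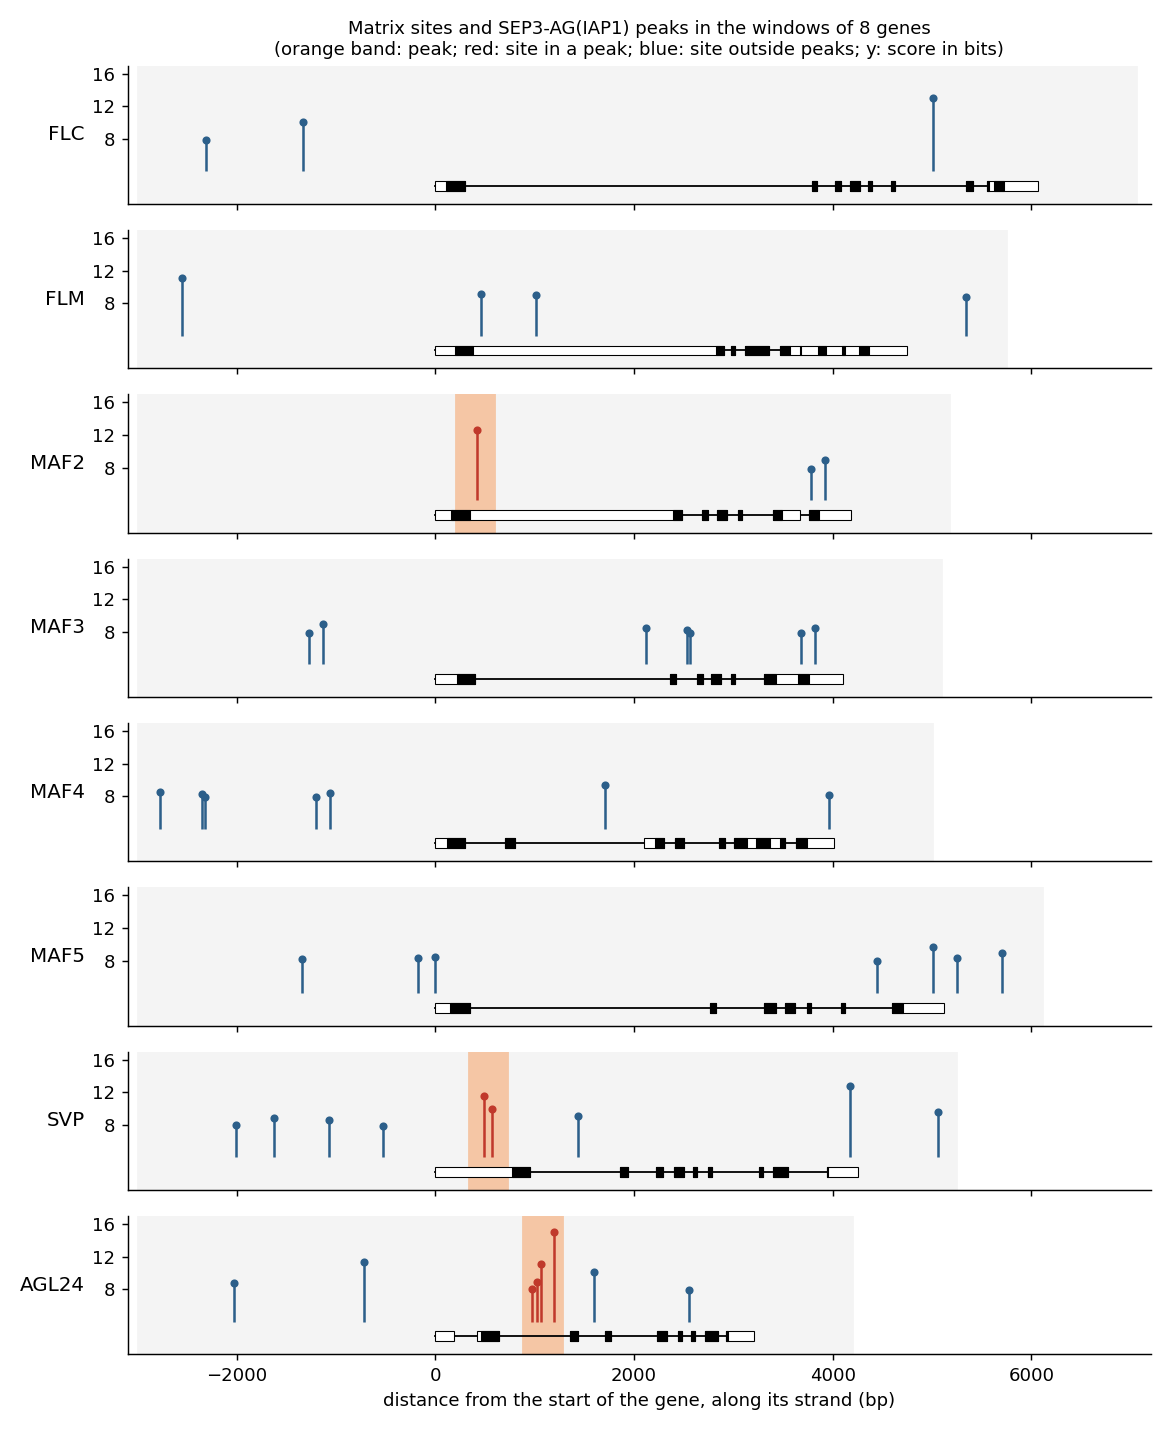
Windows of the 8 genes from 3000 bp upstream of the start to 1000 bp downstream of the end (grey), drawn along the strand of each gene, with coding sequence in black and other exon sequence in white (all transcript models merged), peaks as orange bands and matrix sites of 7.81 bits or more as pins whose height is the score in bits (red in a peak, blue outside peaks). Peaks lie inside MAF2, SVP and AGL24, with midpoints 404, 533 and 1085 bp downstream of their starts, and the other 5 windows hold pins but no band.

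AGL24 (AT4G24540, chr4:12670897-12674106 on the minus strand of TAIR10) carried the peak with the highest-scoring site. The peak covered chr4:12672821-12673220, entirely within the second intron of its 9-exon transcript, with its midpoint 1085 bp downstream of the start. Its canonical box, site 4 above, scored 15.1 bits, higher than the best site in 94.5% of all peaks, whose median was 10.7 bits (quartiles 8.73 and 12.7 bits). This box lay 109 bp from the centre of the peak. Among all peaks the best site lay a median of 17 bp from the centre, and 6.48% of peaks had it at 100 bp or more. A further site, site 3 with 11.2 bits, lay 23 bp from the centre of the AGL24 peak. Sites 1 and 2 scored 8.0 and 8.87 bits. With 4 sites, AGL24 belongs to the 214 peaks (6.03%) that hold 3 or more, whereas 1879 peaks (52.9%) hold 1 site and 547 (15.4%) hold none. From site 1 to site 4, the gaps between the facing ends of neighbouring boxes were 34, 33 and 122 bp.

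The intron stretch from site 1 to site 4, chr4:12672904-12673138 read on the minus strand, is printed because it shows this arrangement whole, with the 4 boxes in capitals.
AGL24 intron: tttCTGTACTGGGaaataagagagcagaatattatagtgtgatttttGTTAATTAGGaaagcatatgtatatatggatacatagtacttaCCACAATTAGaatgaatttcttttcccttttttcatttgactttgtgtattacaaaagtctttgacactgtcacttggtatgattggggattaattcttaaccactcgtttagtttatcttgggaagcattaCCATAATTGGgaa
The first 3 boxes lie close together and the canonical box stands apart from them. Outside the peak, the best site of the AGL24 window scored 11.3 bits and lay 716 bp upstream of the start. The whole window held 8 sites, that of SVP 9 and that of MAF2 only 3, against a median of 5 in bound windows of like length. The GC content of the AGL24 peak was 30.2%, against a median of 32.5% over all peaks. Since the list gives each peak as 1 maximum widened by a fixed amount on both sides, which of the 4 sites were occupied cannot be read from it.

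SVP (AT2G22540, chr2:9579647-9583901 on the plus strand) had its peak at chr2:9579980-9580379, with the midpoint 533 bp downstream of the start. The midpoint lies in the first exon, within the 5′ UTR, in 2 of the 3 annotated transcripts, and in an intron within the 5′ UTR in the other. The peak holds no coding sequence. Site 1 scored 11.6 bits, above the best site of 61.0% of all peaks, and lay 41 bp from the centre. Site 2 scored 9.93 bits and lay 35 bp from the centre on the other side, and the facing ends of the boxes were 66 bp apart. The GC content of the peak was 33.5%. At SVP the highest-scoring site of the window was not in the peak. A site of 12.8 bits (tttCTCGTTATGGaaa, box in capitals) in its 3′ UTR, 4175 bp downstream of the start, scored higher than both sites of the peak and was in no peak. The one canonical box of the SVP window (aagCCTAAAATGGcta), 2011 bp upstream of the start, scored 7.94 bits with its flanks and was also outside peaks.

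MAF2 (AT5G65050, named AGL31 in the annotation, chr5:25982254-25986435 on the plus strand) had its peak at chr5:25982458-25982857, with the midpoint 404 bp downstream of the start. The peak spans the end of the first coding exon, of which it covers 142 bp, and the midpoint lies in the first intron in 4 of the 5 annotated transcripts and in the 5′ UTR of the other. Its only site scored 12.6 bits, above the best site of 73.3% of all peaks, and lay 16 bp from the centre, close to the median of all peaks. The GC content of this peak was 39.2%, which exceeds that of 90.7% of all peaks. The window of MAF2 holds no canonical box at all.

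**Figure D2:**
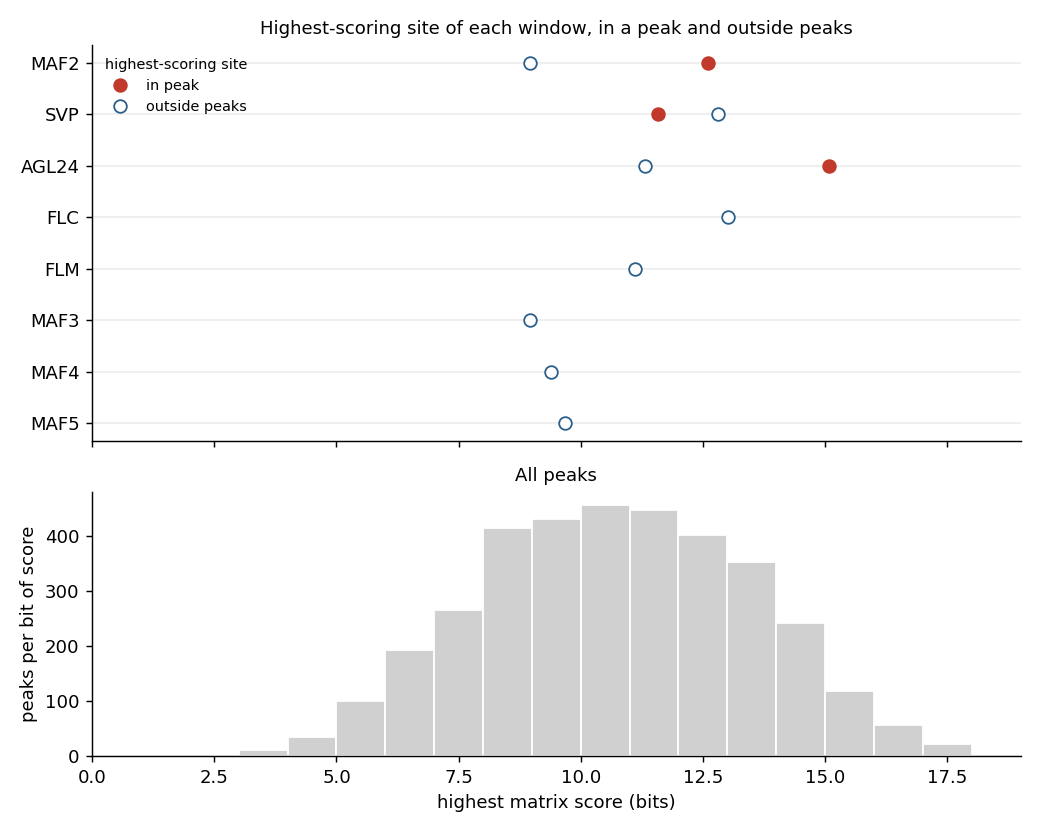
Score in bits of the highest-scoring 16 bp site of each window, in a peak (red, filled) and outside peaks (blue, open), above a histogram of the highest score in each of the 3552 peaks. The highest-scoring sites in the peaks of MAF2, SVP and AGL24 score 12.6, 11.6 and 15.1 bits, and the unbound windows reach 13.01 bits at FLC and 8.96 bits at MAF3.

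The MAF2 peak allowed a comparison of bound and unbound copies of 1 sequence, because MAF2 to MAF5 lie side by side on chromosome 5 and FLM is a further close relative. Aligned with the windows of the other 7 genes (blastn), the MAF2 peak matched FLM at 85.8% identity over 358 bp and MAF3 at 85.8% identity over 366 bp, in both genes across the position of the site. The matches to FLC (84.9% over 146 bp), MAF5 (82.7% over 139 bp) and MAF4 (82.5% over 143 bp, and a further 49 bp) did not reach the site. The peaks of SVP and AGL24 had no match in the window of any other of the 8 genes. The 30 bases around the MAF2 site (chr5:25982659-25982688) and the bases aligned with them are given to show the difference, with the bases aligned to the MAF2 box in capitals.
MAF2 copy: taatcactttCCCCATATAGcaataacctc
FLM copy: taattactttCTCCATATAGaagcttc
MAF3 copy: taatcttATATaataacttc
In FLM (chr1:28955923-28955949) all 10 positions of the box were present and 3 flanking bases were missing. In MAF3 (chr5:25987766-25987785) 10 bases were missing, and 4 of the 10 box positions remained. Counting from 1 at the 5′ end of the 16 bp MAF2 site, the FLM stretch read without gaps carries C5T, C14A and A16G. C5T is in the box, and the other changes are in the flank. In the matrix, C5T replaces a base of 59.9% by one of 39.5%, and A16G one of 74.0% by one of 6.04%. C14A goes the other way, from 14.7% to 49.2%. The FLM copy, 455 bp downstream of its start, scored 9.07 bits and was in no peak, against 12.6 bits for MAF2. The best stretch next to the MAF3 copy scored -0.18 bits. Among these 3 aligned copies, the one with the highest score was the one in a peak, by a matrix fitted to all peaks including that one. Whether the sequence difference sets the binding was not tested.

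**Figure D3:**
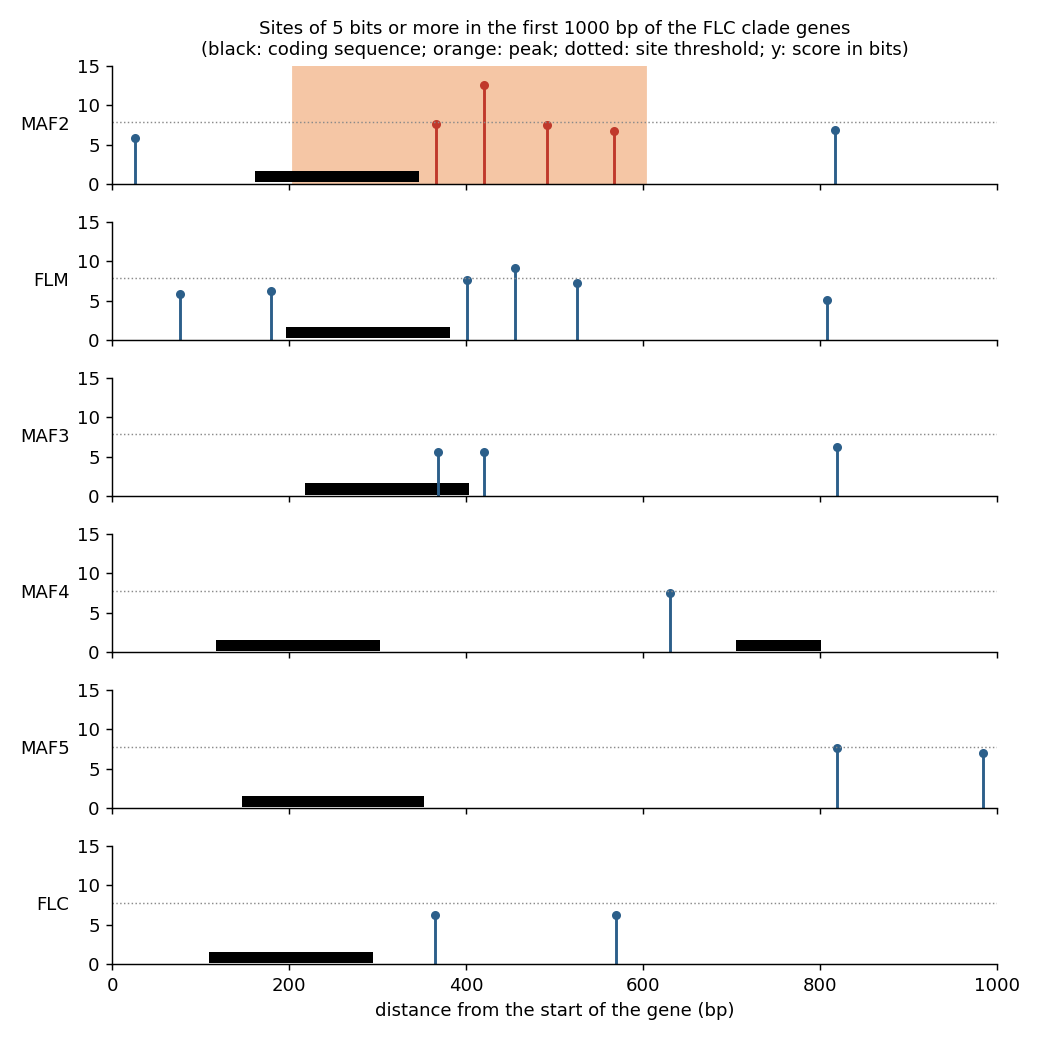
First 1000 bp of the 6 FLC clade genes, with the position of stretches scoring 5 bits or more on the x axis, the score in bits on the y axis, coding sequence in black, the MAF2 peak in orange and the site threshold of 7.81 bits as a dotted line. MAF2 reaches 12.6 bits, FLM 9.07 bits at the aligned position, and the other 4 genes have no site above the threshold in this stretch.

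FLC (AT5G10140, chr5:3173382-3179448 on the minus strand) was unbound although it holds the highest-scoring site of the 5 unbound genes. This site (ttaCTAAATTAAGaaa) scored 13.01 bits, above the best site of 77.7% of all peaks, and lies in an intron 5009 bp downstream of the start, at chr5:3174431-3174446. It differs from the canonical box at 2 positions. In the whole genome, 25% of sites with a score within 0.5 bits of it were in a peak, so that most sites of this strength were, like this one, outside peaks. Its window holds 2 other sites, the higher of which scored 10.1 bits at 1337 bp upstream of the start, and no canonical box, as do 59.4% of windows of like length. FLC was also far from any peak, with the nearest midpoints 52158 bp upstream of its start and 67128 bp downstream of its end.

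FLM (AT1G77080, named MAF1 in the annotation, chr1:28955483-28960234 on the plus strand) was unbound with 2 canonical boxes in its window. The first (tttCCTTTTTTGGttt), 2555 bp upstream of the start, scored 11.1 bits, and 10.7% of genomic sites with a score within 0.5 bits of it were in a peak. The second (gggCCTTTAATGGgca), 869 bp upstream, has only G in the 3 bases before the box, and scored 5.59 bits, a level at which 2.04% of genomic stretches were in a peak. The canonical box of AGL24, at 15.1 bits, belongs to a class of which 53.0% were in a peak. The 4 canonical boxes of the 8 windows thus ranged from 5.59 to 15.1 bits, and the one in a peak had the highest score. The matrix was fitted to all peaks, that of AGL24 among them, so these scores and shares describe the list. The AGL24 box also lay 109 bp from the centre of its peak, and counts as in a peak by the fixed width of 400 bp.

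MAF3 (AT5G65060, chr5:25987309-25991412), MAF4 (AT5G65070, chr5:25992193-25996202) and MAF5 (AT5G65080, chr5:25997504-26002619), all on the plus strand, were unbound and held no site above 9.67 bits. Each window held 7 sites, against a median of 4 in unbound windows of like length. These windows overlap, and a site in an overlap is counted in each window that holds it. All 7 sites of MAF3 also lie in the window of MAF2 or MAF4, and a site of 8.13 bits is shared by MAF4 and MAF5. The counts are therefore not separate for each gene. The best site of MAF3 (tttACAAATTTGTaaa, 8.96 bits) lay 1130 bp upstream of its start and is also in the window of MAF2, downstream of the MAF2 peak. The best site of MAF4 (tggCCCTATATAGaag, 9.40 bits) lay 1708 bp downstream of its start, and that of MAF5 (aggCCAAAATTAGtaa, 9.67 bits) 5007 bp downstream. None of the 3 windows holds a canonical box. Together the windows of MAF2 to MAF5 cover chr5:25979254-26003619, 24366 bp, with the MAF2 peak as the 1 peak midpoint in it. The next midpoint lay 46049 bp beyond the MAF2 peak and the previous one 5690 bp before it. The MAF2 peak is 4651 bp upstream of the start of MAF3, and a window of 5000 bp upstream assigned it to MAF3 as well.

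Over all 8 windows, 40 distinct sites reached the threshold, counting sites in overlapping windows once. Of these, 7 (17.5%, exact 95% interval 7.34% to 32.8%) were in a peak, against 7.35% of such sites in the genome. The 7 sites lie in 3 peaks and are not independent, and the interval covers counting error only. Of the 4 canonical boxes, 1 (25%, exact 95% interval 0.63% to 80.6%) was in a peak, against 7.69% of the canonical boxes of the genome, a difference that 4 boxes cannot resolve. The canonical form alone did not sort bound from unbound genes here, since FLM had 2 boxes and no peak and MAF2 had a peak and no box.

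The score of the best site was then set beside that of other genes with windows of the same length range. The median best score was 12.02 bits in bound windows and 10.4 bits in unbound ones (quartiles of the unbound 9.41 and 11.6 bits). AGL24 (15.1 bits), SVP (12.8 bits, outside its peak) and MAF2 (12.6 bits) had best scores above those of 97.7%, 85.04% and 83.1% of these windows. FLC, at 13.01 bits, was in the same range, with a best score above 86.8% of them, and was unbound. FLM was near the middle at 57.3%, and MAF5, MAF4 and MAF3 were low, at 26.3%, 20.7% and 13.1%. Of the genes whose best score was within 0.5 bits of that of AGL24, 62.9% had a peak. The same share was 37.4% for SVP, 34.9% for MAF2, 38.1% for FLC, 19.9% for FLM, 11.7% for MAF5, 10.8% for MAF4 and 8.78% for MAF3. These shares come from the peaks on which the matrix itself was fitted and describe the list. FLC is the one member whose lack of a peak goes with a share as high as those of MAF2 and SVP. The share of SVP rests on its site outside the peak, and the best site in its peak scored 11.6 bits.

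Reads of near-identical copies cannot be placed with certainty, so the windows were checked for repeated sequence. No stretch of 50 bp in any of the 3 peaks occurred elsewhere in the nuclear genome. In the windows of the unbound genes the share of stretches of 50 bp found elsewhere was 0% at FLC and MAF5 and at most 0.571%, at MAF3. The highest share was 2.06%, at SVP, outside its peak.

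Of the 3 peaks, 2 also fell in the windows of neighbouring genes. The AGL24 peak lay 2799 bp upstream of AT4G24530, annotated as an O-fucosyltransferase family protein, and 2687 bp upstream of AT4G24550, annotated as a clathrin adaptor subunit. The SVP peak lay 2564 bp upstream of AT2G22530, annotated as an alkaline-phosphatase-like protein. The MAF2 peak was in the window of no other gene.

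Genes around the 8 in the flowering pathway were looked up by the same rule. They form a list of regulators of FLC and a list of genes on which the clades' proteins act. Both lists were chosen for role with earlier results of these data known. Their shares are descriptions, and no enrichment is read from them. Of 24 known regulators of FLC, 2 (8.33%) had a peak, against 18.0% of all protein-coding genes. These were FES1, a zinc finger protein of the FRI complex that activates FLC, with a peak midpoint 109 bp upstream of its start, and FCA, an RNA-binding protein that represses FLC, with one 44 bp upstream. Their best sites scored 8.42 and 8.91 bits. FRI, VIN3, VRN1, VRN2 and VRN5, among the others, had none.

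Of 13 genes on which proteins of the 2 clades are known to act, 8 (61.5%) had a peak, against 18.0% of all protein-coding genes. As this list was chosen with earlier results known, the share describes the listed genes only. With narrower windows, 1000 bp upstream to the gene end, 5 of these 13 genes had a peak, against 9.91% of all protein-coding genes. SOC1, the integrator that FLC and SVP repress, had 3 peaks upstream, the highest-scoring site (14.1 bits) being in the peak 27 bp from its start. FT, which encodes the mobile flowering signal, had 1 peak 1887 bp upstream with 11.4 bits, and FD, the partner of the FT protein, 1 peak 1592 bp downstream of its start with 8.70 bits. The AP2-like repressors SMZ and SNZ had the highest scores of this group, SMZ 16.5 bits (ttaCCAAATAAGGaaa, box in capitals) at a peak 2667 bp upstream with another of 11.8 bits at 1101 bp upstream, and SNZ 15.4 bits at 792 bp upstream. TOE1, of the same family, had 1 peak inside the gene (10.8 bits) and 1 downstream of its end (9.34 bits), and TEM1, a repressor of FT, had 1 peak 2713 bp upstream (9.46 bits). SEP3, which encodes a subunit of the complex itself, had 3 peaks, with 13.8 bits in the one 2734 bp upstream. TSF, LFY, SPL15, TEM2 and GA20OX2 had none. Of these 8 genes, 6 had a peak upstream of the start, and SEP3, TOE1 and FD had a peak midpoint inside the gene. Among all 4945 bound protein-coding genes, 31.1% had a peak midpoint inside the gene. The share of them with an upstream peak was not counted, so no difference from the bound genes of the 2 clades is read from this.

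**Figure D4:**
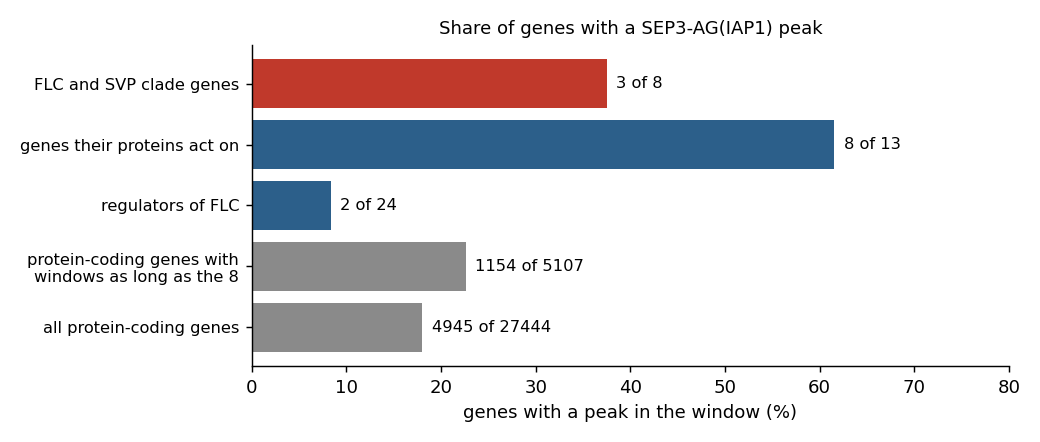
Percentage of genes with a peak in the window, with the count beside each bar, for the 8 FLC and SVP clade genes (red), the 13 genes their proteins act on and the 24 regulators of FLC (blue), and protein-coding genes with windows of like length or all of them (grey). The 8 genes stand at 37.5%, between the 61.5% of the first list and the 8.33% of the second, and the grey bars at 22.6% and 18.0%. The 8 genes and both lists were chosen with earlier results of these data known, so the bars are descriptions.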

How the data were processed

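Genomic DNA bound by SEP3-AGIAP1 was sequenced in 3 replicates. The authors trimmed reads with NGmerge, mapped them with Bowtie2 to TAIR10 without organelle genomes, removed duplicates with SAMtools, called peaks per replicate with MACS2 against input DNA, joined the replicates with MSPC, divided those with more than 1 maximum and set all to a width of 400 bp. Tool versions were not given in the sources used here. Each line of the deposited list is a position without any value, so how strictly peaks were called and joined decides which genes appear bound, and the fixed width decides which sites fall in a peak.

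Sequence and genes came from the RefSeq copy of TAIR10, whose chromosomes contain all peak ends. The 8 genes were matched by locus identifier. The members, gene lists and named genes (all 8, neighbours sharing a peak, and list genes with a peak) were chosen with earlier results of these data known. Of 25 listed regulators of FLC, 1 (FLX) was left out because identifier and symbol did not match in the annotation. The matrix was fitted by expectation maximisation (30 iterations, at most 1 site per peak), and a score is the log2 ratio between the matrix and the average base content of all peaks. Because it is a palindrome, a score holds for both strands. Canonical boxes were searched likewise on both strands. Paralogs were aligned with blastn 2.17.0 (word size 7, e-value 0.001). Exact binomial intervals were Clopper-Pearson. Comparisons are descriptions without tests. Alternatives were other windows, overlaps, box forms and matrix settings. The matrix fit was tested on simulated data and the window rule on constructed cases, and the other steps were not tested in this way. Python 3.11.15, numpy 2.4.6, pandas 2.3.3, scipy 1.17.1 and matplotlib 3.10.9 were used.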

Additional observations from a re-analysis of the deposited data

How the results depend on the processing

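MAF2, SVP and AGL24 had a peak under every window tried. With 5000 bp upstream and 3000 bp downstream, 4 genes were bound, MAF3 being added through the MAF2 peak, and the windows held 4 peaks, the added one lying 4875 bp upstream of SVP. The share of all protein-coding genes with a peak moved to 9.91% with 1000 bp upstream to the gene end, to 27.5% with the wide window and to 10.4% when each peak went to the nearest start. It was 15.3% with 3000 bp upstream to the gene end and 19.1% with any overlap. With at most 1 mismatch, 4 boxes of 88 in the windows were in a peak (4.54%, against 3.0% in the genome), and with C or T at the second and A or G at the ninth position, 2 boxes of 34 (5.88%, against 5.33%). With 1000 bp upstream to the gene end, 5 of the 13 genes on which the clades' proteins act had a peak, and 2 regulators of FLC. The best scores of the MAF2, SVP and AGL24 peaks were 12.5, 11.5 and 15.1 bits with a matrix fitted without their chromosome, and 7.53, 9.08 and 12 bits with the 10 bp box alone. In the central 200 bp of the peak, AGL24 fell to 11.1 bits, since its canonical box lies outside it. No stretch of 100 bp was found elsewhere except at SVP (1.46%). No paired analysis was possible because the list pools the 3 replicates, which also prevented leaving out a replicate. With no heights in the list, weak and strong binding cannot be told apart, and an unbound gene may lie just below the calling threshold.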
